A study of Mus musculus with 6 samples.

Results

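The cells described here were macrophages of mouse mammary tumors in which Cx3cr1 and Tmem119 together outweighed the genes of 2 other macrophage programs. They were chosen by counts of unique molecular identifiers (UMIs), the barcodes that mark each captured RNA molecule. A tumor cell entered when it had 200 to 4000 genes and at most 25% mitochondrial UMIs, at least 5 UMIs of the complement genes C1qa, C1qb and C1qc, no UMI of the T cell gene Cd3g and at most 1 UMI of the endothelial gene Pecam1. Among these C1q-positive cells, the summed UMIs of Cx3cr1 and Tmem119 had to be at least 2 and larger than both the sum of Il1a, Cd207 and Dcstamp and the sum of Ccl8, Folr2, Pf4 and Cd209f. The rule found 1553 cells, 251 in the control library, 672 in the 15 min library and 630 in the 60 min library. They were drawn from 3256 C1q-positive cells, 17562 tumor cells that passed the limits on genes and mitochondrial UMIs, 24527 deposited tumor cells and 58561 cells in the whole series. Of the remaining C1q-positive cells, 1156 were led by the Il1a, Cd207 and Dcstamp sum, 340 by the Folr2 and Pf4 sum, and 207 by neither.

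Cx3cr1 encodes the fractalkine receptor, carried by monocytes, many tissue macrophages and microglia. Tmem119 encodes a membrane protein used as a marker of microglia, the resident macrophages of the brain. C1q is the recognition subunit of the classical complement pathway and is made largely by macrophages, and Apoe is a lipid carrier that macrophages secrete in quantity. Macrophages of a tumor engulf debris, present antigen on MHC class II and release chemokines, and different programs of these tasks can coexist in 1 tumor.

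The tumors came from female MMTV-PyMT mice of 10 weeks, in which a viral promoter active in the mammary epithelium drives the polyoma middle T oncogene, so that the tumors are epithelial and arise in mice with their own immune cells. Minced tumor was digested with collagenase type I in all 3 conditions, for 60 min with conventional disaggregation in the control, or in a microfluidic platform that recirculated the enzyme and then passed the suspension once through a dissociation and filter device. Platform cells were collected as a 15 min interval and, after flushing and refilling, as a later interval ending at 60 min. Live cells were sorted and loaded for droplet sequencing, with 1 library per condition. The study used a single replicate for sequencing and took the tissue for all conditions of a replicate from 1 mouse, so the condition cannot be told apart from the portion of tissue and the library. No test was run between conditions. All intervals below are 95% intervals that cover counting error only.

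The deposited tumor libraries held between 8152 and 8198 cells and between 90414805 and 101222030 UMIs. The Cx3cr1 Tmem119 macrophages had medians of 12015, 9028.5 and 12226.5 UMIs and of 2747, 2476 and 2744 genes in the control, 15 min and 60 min libraries, and median mitochondrial shares of 5.43, 5.69 and 5.36%. The libraries shared 16 to 21 cell barcodes pairwise, and no shared barcode belonged to a Cx3cr1 Tmem119 macrophage.

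The name of the population was checked against its 4 markers, given here in CPM, the UMIs of a gene summed over cells and scaled to a total of 1000000 for all genes of those cells. Cx3cr1 (mm10 chr9:119901616-120069879, minus strand) stood at 736 CPM in the control, 1205 CPM at 15 min and 866 CPM at 60 min. Tmem119 (chr5:113793729-113800516, minus strand) stood at 283, 468 and 404 CPM in the same order. Both genes were part of the rule, so these levels describe the selection. Both were detected in the same cell in 83.7% of the control macrophages, 92.6% at 15 min and 89.7% at 60 min. C1qa (chr4:136895917-136898803), also part of the gate, reached 7056, 8106 and 8272 CPM. Apoe (chr7:19696109-19699188), which the rule did not use, reached 46858, 51610 and 63390 CPM, so that this lipid carrier alone supplied several percent of all UMIs of these cells in each library.

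Droplets can hold free RNA, so detection of the 2 lead genes was set beside that in epithelial cells. The rule fixes detection in the chosen macrophages, so all C1q-positive cells are given first. After every cell was thinned to 2000 UMIs, Cx3cr1 was found in 51.1, 77.6 and 62.8% of C1q-positive cells of the control, 15 min and 60 min libraries, against 0.439, 0.319 and 0.379% of epithelial cells (at least 3 UMIs of Epcam and none of Ptprc). Tmem119 was found in 25.1, 50.9 and 36.7% of C1q-positive cells and in 0.101, 0.213 and 0.295% of the epithelial cells. Among the chosen macrophages the shares were 76.9, 87.6 and 77.9% for Cx3cr1 and 41.7, 59.8 and 48.9% for Tmem119. Median depth before thinning was 9149, 10026 and 9609 UMIs in the epithelial cells. Thinning left out 31, 40 and 25 of the C1q-positive cells, 4, 13 and 6 of them chosen macrophages, and 83, 44 and 39 of the epithelial cells.

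The microglial name of Tmem119 did not extend to the whole microglial gene list. Sall1, a transcription factor that defines microglia, was at 0 UMIs in all 3 libraries, which allows up to 1.02, 0.470 and 0.403 CPM in the control, 15 min and 60 min. Slc2a5, a fructose transporter of microglia, had a single UMI in the control and none elsewhere. P2ry12, a purine receptor of microglia, was present at a low level of 47.5, 42.3 and 46.8 CPM. Siglech was at 15.7, 44.6 and 19.9 CPM. Trem2, a lipid-sensing receptor on the same list, was higher, at 789, 790.4 and 884 CPM. The cells are therefore named here by their 2 leading genes only, and no cell type name beyond macrophage was given to them.

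The cut between the programs ran through a continuum. Among all C1q-positive cells, 91.5% held at least 1 UMI of the Cx3cr1 and Tmem119 sum, 77.3% held at least 1 of the Il1a, Cd207 and Dcstamp sum, and 72.9% held both. Of the 1553 chosen cells, 92 led by a single UMI and 41 had a Cx3cr1 and Tmem119 sum of exactly 2. The libraries' median sums were 11, 15 and 14 UMIs (control, 15 min, 60 min), with maxima of 41, 51 and 58. The 41 cells at 2 had median depths of 5175.5, 2655 and 5906 UMIs. Just outside the rule stood 190 C1q-positive cells with a sum of 1, 56 cells tied with the Il1a, Cd207 and Dcstamp sum and 971 cells with a sum of 2 or more that was exceeded by it (430, 119 and 422 in the control, 15 min and 60 min). The C1q limit itself decided few cells, since 7 chosen cells had 5 or 6 C1q UMIs, 15 otherwise eligible cells had 3 or 4, and the median C1q sums were 170, 149 and 192 UMIs.

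The first question was what share of each library these macrophages made up. Shares of sorted and loaded cells do not give the number of cells that each dissociation released. Cx3cr1 Tmem119 macrophages made up 4.38% (3.86 to 4.94) of the filtered control cells, 11.6% (10.8 to 12.4) of the 15 min cells and 10.5% (9.70 to 11.3) of the 60 min cells, with exact binomial (Clopper-Pearson) intervals. The share was 7.21 percentage points (6.23 to 8.19, Newcombe interval) above the control at 15 min and 6.08 points (5.15 to 7.02) above it at 60 min. The 2 platform intervals differed by 1.12 points (−0.00468 to 2.26), which is not resolved at this depth. Both platform differences share the single control library.

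**Figure D1:**
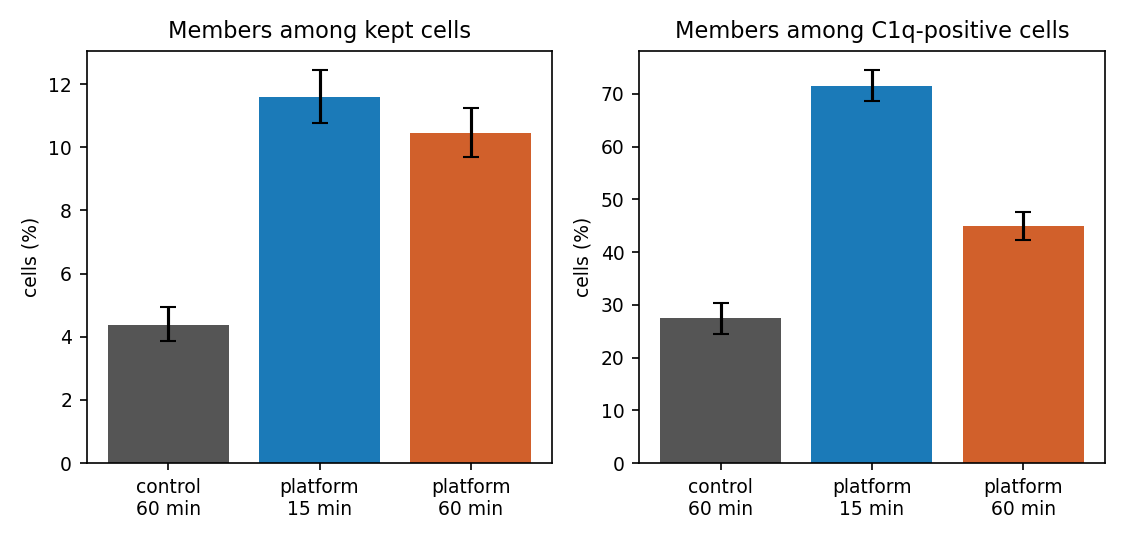
Share of Cx3cr1 Tmem119 macrophages (bars, percent) among filtered tumor cells (left) and among C1q-positive cells (right) in the control, platform 15 min and platform 60 min libraries, 1 library each, with exact 95% binomial intervals as error bars. The bars stand at 4.38, 11.6 and 10.5% on the left and at 27.4, 71.6 and 44.9% on the right.

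Within the C1q-positive cells, the contrast between the libraries was larger. The program held 27.4% (24.6 to 30.4) of the 915 C1q-positive control cells, 71.6% (68.6 to 74.4) of 939 at 15 min and 44.9% (42.3 to 47.6) of 1402 at 60 min. The 15 min share exceeded the control by 44.1 points (39.9 to 48.1) and the 60 min share by 17.5 points (13.6 to 21.3). The contrast depended on how the rule was set. When the Il1a, Cd207 and Dcstamp sum was left out of the rule, an alternative chosen after seeing the data, the shares of C1q-positive cells became 75.6, 85.9 and 75.0%, so the 15 min difference was 10.3 points and the 60 min difference turned to −0.664 points. Without that sum, the shares of all filtered cells were 12.1, 13.9 and 17.4%. These alternative shares were taken without thinning to equal depth. Before thinning, 88.7, 92.2 and 92.8% of C1q-positive cells held at least 1 UMI of the Cx3cr1 and Tmem119 sum. The 60 min library had more C1q-positive cells among its filtered cells than the other 2 (23.3%, against 16.0% in the control and 16.2% at 15 min).

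Levels over all C1q-positive cells, which no program cut had split, showed both sides of the comparison. Cx3cr1 was at 446 CPM in the control, 1001 CPM at 15 min and 635 CPM at 60 min. Tmem119 was at 168, 388 and 268 CPM in the same order, so both lead genes were highest at 15 min and lowest in the control. Il1a, an interleukin of the alarm response, stood lowest at 15 min, with 771 CPM in the control, 437 CPM at 15 min and 944 CPM at 60 min. Cd207, the C-type lectin langerin, was at 240, 25.7 and 60.2 CPM and Dcstamp, a cell fusion protein, at 461, 176 and 192 CPM. The levels of the competing genes thus differed between the libraries as well. Their part in the share of Cx3cr1 Tmem119 macrophages was not separated from that of depth. After thinning to 2000 UMIs per cell, the competing sums were left out of a further count. In it, 2 or more UMIs of Cx3cr1 and Tmem119 were held by 32.7% of C1q-positive control cells, 68.6% at 15 min and 49.2% at the later interval.

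**Figure D2:**
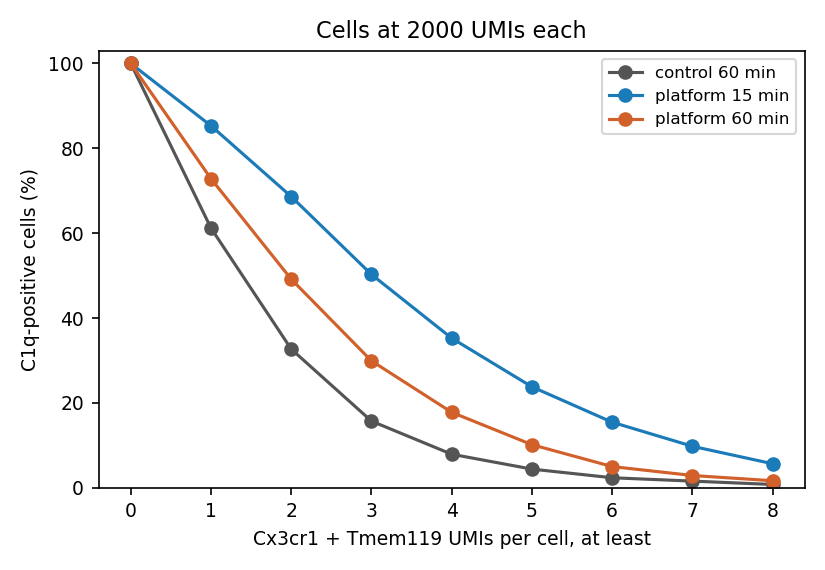
Share of C1q-positive cells (vertical axis, percent) that held at least the number of Cx3cr1 plus Tmem119 UMIs on the horizontal axis after each cell was thinned to 2000 UMIs, 1 line per library. At 2 UMIs or more the control line stands at 32.7%, the 15 min line at 68.6% and the 60 min line at 49.2%.

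Gene levels within the Cx3cr1 Tmem119 macrophages were then compared between the libraries, as a description of 1 library against another. A gene was counted when its mean over the 2 libraries was at least 20 CPM, and called when the 2 levels differed at least 2-fold. Between 15 min and control, 88 of 4858 genes were higher at 15 min (1.81%) and 176 lower (3.62%), 5.43% in all. Between 60 min and control, 60 of 4639 genes were higher at 60 min (1.29%) and 122 lower (2.63%), 3.92% in all, a split that became 72 and 91 when ratios were centred on their median. The median log2 ratio of the counted genes was 0.04 for 15 min over control, −0.07 for 60 min over control and −0.11 for 60 min over 15 min. The balance of higher and lower calls depended on the level minimum. At 5 CPM it was 422 higher and 283 lower for 15 min over control, and with no minimum and 1 CPM added it was 415 and 381 for 60 min over control. The shares at 20 CPM are the background for each gene list below, and both platform comparisons use the same control macrophages.

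Several immediate early genes, which are transcribed within minutes of a stimulus, stood highest at 15 min, while others did not. Fos, a subunit of the AP-1 transcription factor, was at 1277 CPM in the control, 4490.1 CPM at 15 min and 3352 CPM at 60 min, 3.52 times the control (3.40 to 3.64) at 15 min and 2.62 times (2.54 to 2.72) at 60 min. Its partner Jun was at 1162, 4085 and 3399 CPM. Egr1, a zinc finger transcription factor, was at 308 CPM in the control, 1613 CPM at 15 min and 870.4 CPM at 60 min, 5.24 times (4.89 to 5.61) and 2.83 times (2.63 to 3.03) the control. The control was the lowest library for each of these genes. Atf3, a stress-induced transcription factor, was at 1057, 2440.4 and 2178 CPM, Dusp1, a phosphatase that shuts off MAP kinases, at 495, 1733 and 1314 CPM, and Ier2 at 448, 1774 and 760 CPM. In the list of 12 stress response genes, 5 were at least 2-fold higher at 15 min than in the control (Atf3, Egr1, Fos, Fosb and Jun) and 1 was lower, Gadd45b, a growth arrest gene, at 557, 175 and 443 CPM. At 60 min, 5 of the 12 were higher than in the control (Atf3, Egr1, Fos, Hsp90aa1 and Jun) and none lower. The median log2 ratio of the 12 was 0.55 at 15 min and 0.65 at 60 min, beside 0.04 and −0.07 over all counted genes. The list is the set of stress genes that the study displayed.

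By summed CPM, the heat shock chaperones followed another order, lowest at 15 min and highest at 60 min. Hspa1a, an inducible chaperone of the Hsp70 family, was at 1368 CPM in the control, 677 CPM at 15 min and 4359 CPM at 60 min. Its near-identical neighbour Hspa1b was at 572, 138 and 1766 CPM, though reads cannot always be assigned to 1 of the pair. Hsph1, a co-chaperone of the Hsp110 family, was at 82.3 CPM in the control, 36.8 CPM at 15 min and 279 CPM at 60 min. All 3 were at least 2-fold lower at 15 min than in the control and at least 3.09 times higher at 60 min than in the control. Dnajb1, an Hsp40 co-chaperone, was at 215, 194 and 658 CPM, Hsp90aa1 at 1272, 667 and 2925 CPM, and the co-chaperone Bag3 at 57.4, 26.5 and 174 CPM. At 60 min Hspa1a stood at 6.44 times (6.24 to 6.65) its 15 min level, and Hspb1, a small heat shock protein, at 188 against 24.7 CPM. Per cell, Hspa1a and Hspa1b together had medians of 0.934, 1.504 and 41.2 per 10000 UMIs, and the highest 10% of cells held at least 78.8, 29.4 and 161 per 10000 UMIs. The median cell was thus lowest in the control, and only the highest 10% repeated the order of the sums.

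The promoters of Hspa1a and Hspa1b are shown because the 2 genes are near-identical neighbours with the same order of libraries. Each line is the 250 bases before the RefSeq start site on GRCm38.p6, on the gene's own minus strand, with capitals marking GAANNTTC, the core of a heat shock element (Hspa1a chr17:34972157-34972406 and Hspa1b chr17:34959239-34959488).
Hspa1a: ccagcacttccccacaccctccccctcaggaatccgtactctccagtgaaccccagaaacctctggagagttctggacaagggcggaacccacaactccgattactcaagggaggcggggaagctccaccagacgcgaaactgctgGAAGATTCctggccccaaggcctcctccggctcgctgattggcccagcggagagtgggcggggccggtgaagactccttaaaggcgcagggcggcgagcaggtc
Hspa1b: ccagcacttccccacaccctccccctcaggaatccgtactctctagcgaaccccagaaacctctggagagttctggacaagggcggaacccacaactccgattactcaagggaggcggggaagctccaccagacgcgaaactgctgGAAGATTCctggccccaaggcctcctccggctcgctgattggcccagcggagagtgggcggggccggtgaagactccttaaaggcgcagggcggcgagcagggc

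The 2 windows differed at 3 positions, C44T, T47C and T249G from Hspa1a to Hspa1b counted from the first base printed, and were 98.8% identical. The motif began at position −104 from the start site in both. Of the 9 Hsp and Dnaj genes in the stress and heat shock lists, 6 matched a RefSeq promoter by symbol and 4 of these held GAANNTTC, which reads the same on both strands (Hspa1a, Hspa1b, Hspd1 and Hspe1). Hsph1 had the same order of libraries as the printed pair, but its window did not hold GAANNTTC. Over all 27025 genes in the table, 7.73% held it in a window of that length. A match describes the sequence and is not a binding site.

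Other immediate early and heat shock genes, a list of 20, repeated the division by library. At 15 min, 3 of 20 were at least 2-fold above the control (Btg2, Dusp1 and Ier2) and 3 below (Hspa1a, Hspa1b and Hsph1). At 60 min, 7 were above (Dnajb1, Dusp1, Hspa1a, Hspa1b, Hsph1, Klf2 and Myc) and 1 below, Egr3. Klf2, a transcription factor of quiescence and flow sensing, was at 549, 886 and 1828 CPM. The immediate early gene Klf4 also stood highest at 60 min, at 1.92 times the control against 1.25 times at 15 min. Cell by cell, the summed Fos and Jun share had medians of 8.02, 84.1 and 58.0 per 10000 UMIs in the 3 libraries, highest at 15 min. The 10% of control macrophages with the most Fos and Jun held 81.3 per 10000 or more, near the 15 min median.

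**Figure D3:**
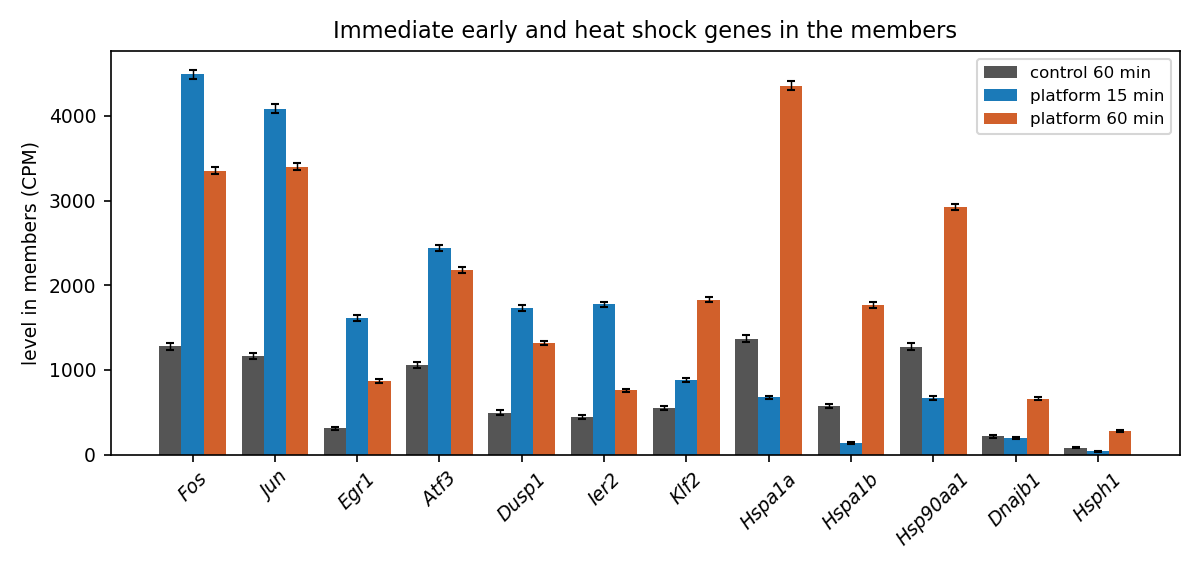
Levels of 12 immediate early and heat shock genes in the Cx3cr1 Tmem119 macrophages (vertical axis, CPM) in the control, platform 15 min and platform 60 min libraries, with exact Poisson 95% intervals as error bars. Fos, Jun, Egr1, Atf3, Dusp1 and Ier2 are tallest at 15 min, and Klf2, Hspa1a, Hspa1b, Hsp90aa1, Dnajb1 and Hsph1 at 60 min.

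The summed level of the 12 stress genes displayed by the study was 12720.0 CPM in the control. It was 22120 CPM at 15 min and 22831 CPM at 60 min. The ratio to the control was 1.74 (1.72 to 1.76) at 15 min and 1.79 (1.77 to 1.82) at 60 min. Without the 3 heat shock genes of the list (Hsp90aa1, Hspa8 and Hspd1), the ratios became 2.29 and 1.88, so the order of the 2 intervals depended on those genes. In the Il1a Cd207 cells the ratios were 2.32 and 1.78, in the Folr2 Pf4 cells 1.26 and 1.99, and in kidney cells that met the same rule 1.18 and 2.06. All 8 ratios were above 1, and none has a replicate. The study scored stress with a larger published gene set and reported similar scores across tumor conditions and cell types. From averages per cell cluster, it also described the 12 displayed genes as generally similar across tumor conditions. A CPM sum over 12 genes in 1 macrophage program is a different measure from that score.

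Anti-inflammatory and neutrophil-attracting transcripts were among the genes with the lowest ratios of 15 min to control. Il10, an anti-inflammatory cytokine, was at 125 CPM in the control, 4.23 CPM at 15 min and 40.5 CPM at 60 min, 29.7 times lower at 15 min than in the control. Cxcl1, a neutrophil chemokine, was at 832, 76.7 and 299.7 CPM, and its relative Cxcl2 at 3282, 1233 and 3103 CPM. The decoy receptor Il1r2 was at 48.5, 4.23 and 8.32 CPM, and the receptor antagonist Il1rn at 266, 43.1 and 116 CPM. Of 14 counted genes in the inflammatory cytokine list, 5 were at least 2-fold lower at 15 min than in the control (Il10, Il1r2, Il1rn, Nlrp3 and Ptgs2) and 2 higher, Nfkbiz and Zfp36, which are feedback regulators of inflammatory transcripts. At 60 min, 3 were lower than in the control (Il10, Il1r2 and Il1rn) and 1 higher, Tnf, at 253, 260.2 and 579 CPM. Il1b, among the most abundant cytokine transcripts of these cells, stayed within 2-fold, at 3393, 3117 and 2690.5 CPM.

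Chemokines went both ways. Ccl3 and Ccl4, which attract monocytes and T cells, were at 914 and 2165 CPM in the control, 2036 and 3934 CPM at 15 min, and 2190.2 and 5077 CPM at 60 min. Ccl2 and Ccl7, ligands of the monocyte receptor Ccr2, were at 391 and 234 CPM in the control, 158 and 48.2 CPM at 15 min and 425 and 197 CPM at 60 min. These 2 pairs therefore stood in different orders at 15 min, with Ccl3 and Ccl4 above the control and Ccl2 and Ccl7 below it. Of 17 counted chemokine and receptor genes, 1 was at least 2-fold above the control at 15 min (Ccl3) and 5 below (Ccl2, Ccl5, Ccl7, Cxcl1 and Cxcl2). At 60 min, 4 were above (Ccl12, Ccl3, Ccl4 and Cxcl10) and 1 below (Cxcl1). Cxcl10, an interferon-induced chemokine, was at 111, 181 and 479 CPM, and Rsad2, an interferon-stimulated antiviral gene, at 9.56, 65.4 and 48.0 CPM. Rsad2 was the only one of 11 counted interferon-stimulated genes past 2-fold at either time.

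A second set of genes was lower in both platform libraries than in the control. Vegfa, the vascular growth factor, was at 61.8 CPM in the control and at 18.9 and 18.3 CPM in the 15 and 60 min libraries. The urokinase receptor Plaur was at 347, 109.7 and 127 CPM, the hyaluronan receptor Cd44 at 171, 57.8 and 73.3 CPM, and the protease Adam8 at 43.4, 18.8 and 11.0 CPM. These 4 genes and Mmp13 were the 5 of 14 counted growth factor and matrix genes below the control at 15 min, and the 4 without Mmp13 were those below it at 60 min. Of the hypoxia and glycolysis genes, 2 of 13 counted were below the control at 15 min (Hilpda and Ndrg1) and 2 of 11 at 60 min (Hilpda and Slc2a1). Hilpda, a lipid droplet protein, was at 209, 33.8 and 59.6 CPM, and the glucose transporter Slc2a1 at 49.9, 26.5 and 19.99 CPM. Cd14, the lipopolysaccharide co-receptor, was at 3278, 1387 and 1479.9 CPM. Genes most lowered at 60 min also included the antioxidant genes Srxn1 (138, 21.3 and 30.6 CPM) and Slc7a11 (38.9, 8.92 and 8.86 CPM).

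Of 15 macrophage identity genes, Cd14 was the 1 at least 2-fold below the control at either time, and the transcription factor Maf the 1 above it at 60 min. Maf was at 70.7, 123 and 171 CPM. The macrophage growth factor receptor Csf1r stayed within 2-fold at 611, 800.4 and 671 CPM. In the microglial list, Siglech was the 1 of 17 counted genes above the control at 15 min, and Rhob, a stress-responsive GTPase, the 1 of 16 at 60 min. None of the 18 counted lipid and lysosome genes passed 2-fold against the control. Apoe at 60 min was 1.35 times (1.34 to 1.36) and the protease Ctsd 1.39 times (1.35 to 1.44) the control, and Spp1, the secreted matrix protein osteopontin, was at 718, 1218 and 1292 CPM. MHC class II genes were close throughout, with H2-Ab1 at 9685, 10126 and 8792 CPM and Cd74, the invariant chain, at 26915, 30674 and 26920.3 CPM. Their transactivator Ciita was the 1 of 9 past 2-fold at 15 min, at 47.8, 138 and 67.1 CPM.

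The 2 platform intervals were closer to each other than either was to the control by number of called genes. Counting error was larger in comparisons with the control, whose macrophages held 2927833 UMIs against 6387811 at 15 min and 7451884 at 60 min. The part of counting error in this order was not tested. At 60 min, 65 of 4831 genes were at least 2-fold higher than at 15 min (1.35%) and 38 lower (0.787%). That was 2.13% in all, or 76 and 24 genes after centring. At a minimum of 5 CPM the balance turned to 128 higher and 140 lower, and without cells marked as doublets by Scrublet it was 66 and 21. The 10 highest ratios at 60 min over 15 min included Tnfsf9, a ligand of the Tnf family (4.23 against 56.2 CPM), Hspa1b, Il10, the stress cytokine Gdf15 (36.8 against 280.2 CPM) and Slc5a3, an inositol transporter (10.6 against 73.0 CPM). Genes of mammary epithelium were among those with the lowest ratios, among them the milk protein genes Csn3 (557 against 219.9 CPM) and Lalba (72.0 against 28.4 CPM) and the water channel Aqp5 (31.6 against 12.1 CPM).

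Epithelial RNA was the main foreign RNA in these cells and differed between the libraries. The 12 epithelial genes summed to 2334 CPM in the control, 2446 CPM at 15 min and 1344 CPM at 60 min, against 56376, 56799 and 53918 CPM in epithelial cells. Of 8 counted genes, 5 were at least 2-fold lower at 60 min than in the control (Csn3, Epcam, Krt18, Krt8 and Lcn2). The lists of other lineages had lower sums. The 12 T and NK cell genes summed to 13.7, 10.6 and 18.4 CPM, with Cd3e at 0, 0.157 and 0 CPM. The 8 endothelial genes summed to 6.15, 10.5 and 11.3 CPM, the 9 fibroblast and pericyte genes to 22.5, 18.6 and 78.4 CPM, and the 9 dendritic cell genes to 30.4, 37.9 and 37.0 CPM. The 6 B cell genes summed to 131, 166 and 151 CPM. The 8 granulocyte genes summed to 77.2, 37.7 and 38.5 CPM. The part of foreign RNA in the gene levels above was not tested, and leaving out cells with over 1% epithelial UMIs, an alternative chosen after seeing the data, gave shares of C1q-positive cells of 27.3, 71.6 and 44.8%.

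Cycling cells were few. After thinning to 2000 UMIs, 2.83% (1.15 to 5.75) of the control macrophages, 2.12% (1.17 to 3.54) at 15 min and 2.08% (1.11 to 3.54) at 60 min held at least 2 UMIs of the proliferation genes Mki67 and Top2a. Unthinned shares were 9.16, 7.89 and 6.51%. The thinned differences from the control were −0.710 points (−3.73 to 1.32) and −0.751 points (−3.78 to 1.30), and were not resolved at this depth.

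The Cx3cr1 Tmem119 macrophages were next set beside the Il1a Cd207 macrophages of the same libraries. The rule chose both sides from these counts, so what follows is a description. A gene was called when it differed at least 2-fold the same way in each of the 3 libraries, and the rule's own genes were left out. Only 1 of 4911 genes was higher in the Cx3cr1 Tmem119 macrophages (0.0204%) and 20 were lower (0.407%), 0.428% in all. Leaving out the 15 min library, with its 140 Il1a Cd207 cells, raised the total from 21 to 85, and leaving out the control raised it to 44. The gene called higher was Hspa1b, at ratios of 2.82, 2.05 and 2.23 in the control, 15 min and 60 min, and it lost its call when ratios were centred on their medians (log2 medians of 0.11, 0.05 and 0.17).

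Of the 20 genes lower in the Cx3cr1 Tmem119 macrophages, the 12 with the largest ratios included chemokines and proteases. Mmp12, the macrophage elastase, was at 105, 110.5 and 83.5 CPM against 406, 365 and 474 CPM in the Il1a Cd207 macrophages. Cxcl2 was at 3282, 1233 and 3103 CPM against 7976, 3647 and 12976 CPM. The growth factor Areg was at 20.8, 2.82 and 8.72 CPM against 123, 14.6 and 153 CPM. That each Cx3cr1 Tmem119 value lies below the Il1a Cd207 value of its own library follows from the call itself. The chemokines Ccl22 and Ccl5, the interferon genes Ifnb1 and Rsad2, the signalling genes Tnip3 and Traf1, and Mmp13, Il1r2 and Il7r completed the 12 largest. In the inflammatory cytokine list, Il1r2 was the 1 of 16 counted genes called. Il1b was 1.97, 1.38 and 3.31 times lower in the Cx3cr1 Tmem119 macrophages and missed the call at 15 min and in the control. Apoe was 1.20, 1.36 and 1.29 times higher, and none of 18 counted microglial list genes passed 2-fold in all 3 libraries. Fcrls of that list was 4.11, 2.40 and 1.91 times higher and missed the call at 60 min. The list's median log2 ratios were 0.22, 0.36 and 0.44, beside 0.11, 0.05 and 0.17 over all counted genes.

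**Figure D4:**
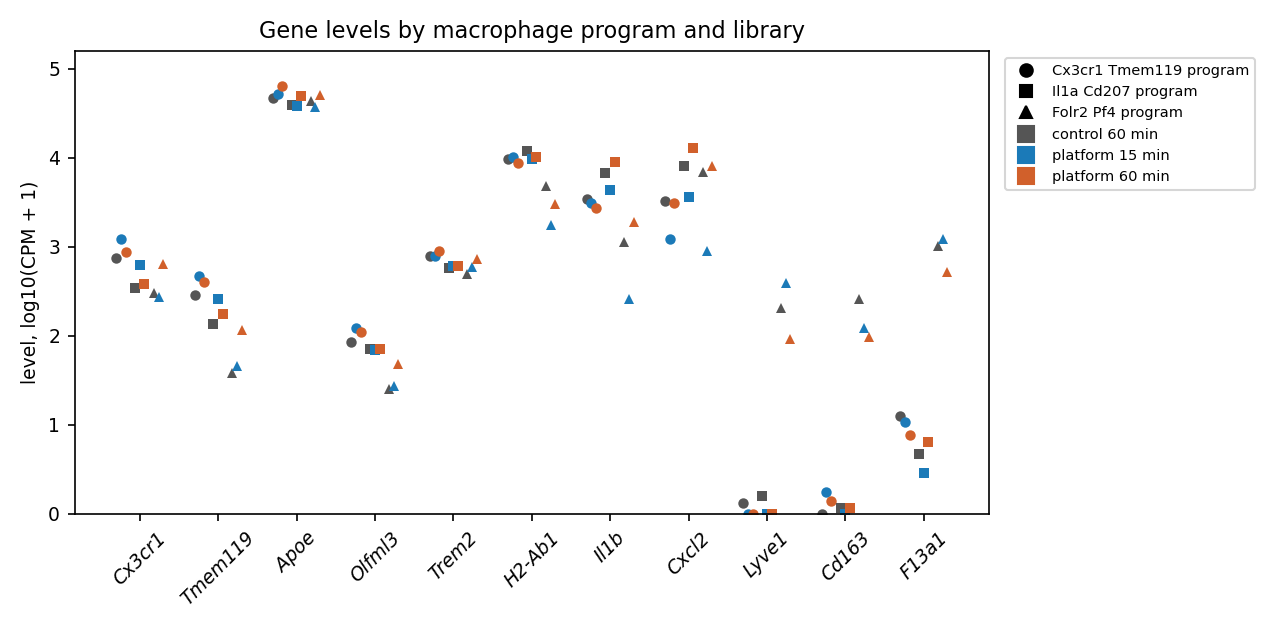
Levels of 11 genes as log10(CPM + 1) on the vertical axis in the Cx3cr1 Tmem119 (circles), Il1a Cd207 (squares) and Folr2 Pf4 (triangles) macrophages of the control, platform 15 min and platform 60 min libraries, without error bars. Circles and squares lie close for most genes, while Lyve1, Cd163 and F13a1 are high in the triangles and near 0 or low in the others, and H2-Ab1 is lowest in the triangles.

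The distance to the Folr2 Pf4 macrophages was greater. Of 5428 genes, 98 were higher in the Cx3cr1 Tmem119 macrophages (1.81%) and 250 lower (4.61%) in each library, 6.41% in all, and leaving out the 60 min library raised the total of 348 to 598. The Folr2 Pf4 side held only 60 control and 61 15 min cells, which limits its levels there. Its 15 min cells also held foreign RNA. Fibroblast and pericyte genes summed to 919 CPM in them, against 17.3 CPM in its control cells and 107 CPM at 60 min. The part of this RNA in the 15 min ratios was not tested. All 13 counted genes of the resident tissue macrophage list were lower in the Cx3cr1 Tmem119 macrophages, among them F13a1, a coagulation factor, at 11.6, 9.71 and 6.71 CPM against 1010, 1232 and 515 CPM. The mannose receptor Mrc1 was at 60.5, 47.7 and 95.01 CPM against 969, 1356 and 906 CPM. Lyve1, a hyaluronan receptor of resident macrophages, had 1 UMI in the control Cx3cr1 Tmem119 macrophages and none at 15 min and 60 min, against 202, 389.5 and 90.6 CPM. The hemoglobin scavenger receptor Cd163 was at 0, 0.783 and 0.403 CPM against 260, 122 and 96.7 CPM. The whole list summed to 1239.8, 1249 and 1756 CPM in the Cx3cr1 Tmem119 macrophages, against 12694, 17823 and 16059 CPM in the Folr2 Pf4 macrophages. Unlike the calls, this sum includes Ccl8, a gene of the rule, so the selection partly fixed its difference.

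Several groups stood higher in the Cx3cr1 Tmem119 than in the Folr2 Pf4 macrophages. Of 10 counted MHC class II genes, 4 were at least 2-fold higher in every library (Cd74, Ciita, H2-Ab1 and H2-DMb1), with H2-Ab1 at ratios of 2.01, 5.73 and 2.92. In the microglial list, Olfml3 was higher, at ratios of 3.41, 4.53 and 2.31, and Fcrls was lower, at 346, 257 and 508 CPM against 793, 857 and 1335 CPM. The integrin Itgax, known as CD11c, was 5.67, 14.1 and 4.34 times higher. The largest ratios by the rule for named genes were those of Sh2d1b1, a signalling adaptor, Qpct, a glutaminyl cyclase, and Cyp4f18, a lipid hydroxylase, followed by the cytokines Tnfsf8 and Tnfsf13b and the chemokine receptor Ccr6. Ccr6 was at 28.7, 71.7 and 39.2 CPM against 5.77, 6.23 and 1.21 CPM. In the complement list, Itgax was higher and C4b, C5ar1, Cd93 and Cfp were among the lower genes, while C1qa of the gate stood at ratios of 0.953, 0.888 and 0.906.

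The C1q genes are the gate that all 3 programs share, and the promoter of C1qb is shown for that reason. The 250 bases before the RefSeq start site (GRCm38.p6, chr4:136886201-136886450, minus strand) hold GAGGAA once, in capitals, the core bound by the myeloid factor PU.1, beginning at position −30.
C1qb: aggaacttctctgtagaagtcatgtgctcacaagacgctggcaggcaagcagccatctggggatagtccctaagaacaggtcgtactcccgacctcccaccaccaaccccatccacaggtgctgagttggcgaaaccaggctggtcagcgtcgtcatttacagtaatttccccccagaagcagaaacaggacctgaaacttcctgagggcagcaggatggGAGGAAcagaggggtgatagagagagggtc

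Of Cx3cr1, Tmem119, Apoe and the 3 C1q genes, 4 matched a RefSeq promoter by symbol, and 3 of these (Apoe, C1qb and C1qc) held GAGGAA on 1 of the 2 strands, as did 25.9% of all 27025 genes. The window of Cx3cr1 did not hold these letters.

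The Cx3cr1 Tmem119 macrophages also varied among themselves. Tmem119 was detected in 214 of the 251 control cells, 629 of 672 at 15 min and 569 of 630 at 60 min. Cells with it were deeper, at medians of 12195, 9183 and 12349 UMIs against 11161, 7935 and 9509 UMIs, and the rule used this gene, so the split is a description. Olfml3, a secreted glycoprotein of the microglial list, was 2.14, 1.80 and 1.59 times higher in the cells with Tmem119. Other genes of that list did not share this, with Fcrls at ratios of 1.05, 0.874 and 0.784, Gpr34 at 2.06, 0.753 and 1.19 and P2ry12 at 1.40, 1.38 and 0.996. Depth moved with this split, and its part was not tested. Per cell, Apoe ranged from 128 (lowest 10%) through a median of 421 to 970.3 (highest 10%) per 10000 UMIs in the control, with medians of 491 at 15 min and 608 at 60 min. MHC class II varied more, from 42.2 through 470.0 to 828 per 10000 UMIs in the control, so that some of these macrophages held little antigen presentation RNA while others held much.

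The same rule, with the study's kidney limits of 3000 genes and 50% mitochondrial UMIs, found 262, 47 and 393 cells in the control, 15 min and 60 min kidney libraries of 12-week-old male C57BL/6 mice. Tissue, strain, sex and age differ together and cannot be told apart. The kidney cells held Cx3cr1 at 520.1, 576 and 520.5 CPM but Tmem119 at only 34.4, 63.6 and 35.0 CPM, and Tmem119 was detected in 20.2, 36.2 and 17.0% of them. Apoe was at 6540, 7691 and 7285 CPM in kidney, against 46858, 51610 and 63390 CPM in the tumor macrophages. Trem2 was at 32.9, 60.3 and 56.0 CPM in kidney, against 789, 790.4 and 884 CPM in the tumor. Cd74 had the other order, at 41494, 47047 and 37536 CPM in kidney against 26915, 30674 and 26920.3 CPM. In kidney the rule thus selected mainly Cx3cr1-positive cells with little Tmem119.

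**Figure D5:**
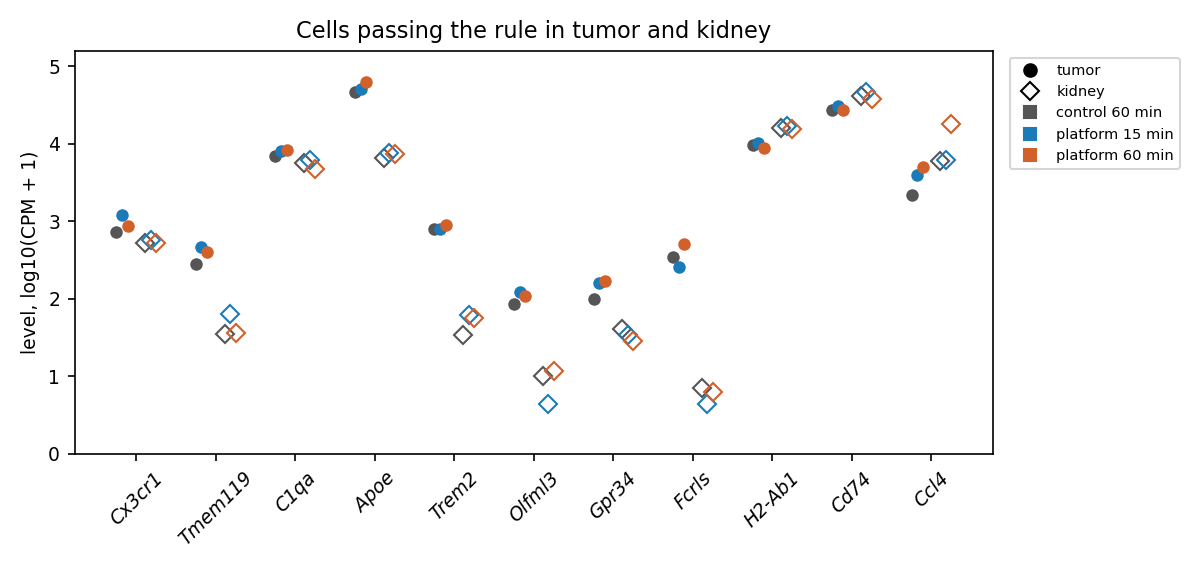
Levels of 11 genes as log10(CPM + 1) on the vertical axis in tumor cells (filled circles) and kidney cells (open diamonds) that met the same rule, in the control, platform 15 min and platform 60 min libraries, without error bars. Tmem119, Apoe, Trem2, Olfml3 and Fcrls are higher in the tumor cells of every library, and H2-Ab1, Cd74 and Ccl4 in the kidney cells.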

How the data were processed

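Droplet libraries (10x v3 chemistry) of mouse mammary tumor, with kidney libraries for 1 comparison, were analysed with 1 library per condition and no replicate, all conditions of a tissue from 1 mouse per the study's reporting summary. The authors used Cell Ranger 3.1.0 with mm10 and combined libraries by its aggr command, which subsamples reads to a like depth, so depth differences between libraries are partly removed. The deposited values are raw UMI counts of all called cells. Barcodes were assigned to libraries through the deposited aggregation table. Cells with under 200 or over 4000 genes or over 25% mitochondrial UMIs were removed. Doublets were treated through the gene limit only. The Scrublet caller of scanpy 1.11.5 marked between 1.12 and 2.17% of each library, including 3 control, 23 15 min and 9 60 min macrophages of the chosen set.

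The members, gene lists and alternatives were chosen with earlier results of these data known. Levels are CPM of summed UMIs. Shares carry Clopper-Pearson, differences of shares Newcombe and levels and ratios exact Poisson-based 95% intervals, which cover counting error only. For a gene at 0 UMIs the upper limit is 3 counts. A gene was called at a 2-fold difference among genes of at least 20 CPM. Named genes were those of the rule, those of the lists, the 12 largest called ratios per direction between programs and the 10 largest between libraries, and genes named otherwise were chosen after their values were seen. The calling steps were tested on simulated data. Coordinates are those of GENCODE M21 (GRCm38, the mm10 assembly). Analyses used Python 3.11.15 and numpy 2.4.6. Some genes of the lists are not reported here.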

Additional observations from a re-analysis of the deposited data

Results flagged for a closer look

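Some differences from the control went in opposite directions in the tumor and in the kidney cells that met the same rule. The share of filtered cells in the Cx3cr1 Tmem119 program at 15 min was 7.21 points above the control in the tumor (6.23 to 8.19) and 3.89 points below it in kidney (a difference of −3.89 points, −4.47 to −3.36). The share of C1q-positive cells in the program at 60 min was 17.5 points above the control in the tumor (13.6 to 21.3), compared with −5.37 points in kidney (−9.32 to −1.49). Without the Il1a, Cd207 and Dcstamp sum, this tumor difference was −0.664 points. At 15 min the share of C1q-positive cells had the same sign in both tissues. It was 44.1 points above the control in the tumor and 3.50 points above it in kidney (−4.83 to 12.5). With 1 library per condition in each tissue, the difference between the tissues was not tested. The 15 min kidney library held 132 C1q-positive cells among 8390 filtered cells, against 816 of 5886 in its control.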

How the results depend on the processing

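Each condition had 1 library and each interval covers counting error only, so the spread between replicates is unknown and rare genes are limited by the 2927833 UMIs of the 251 control macrophages. Of 105 alternative values, 71 stayed near the reported value, 33 departed from it and 1 changed sign. The cause was not tested except where the alternative itself shows it. No paired analysis was possible because each group holds 1 library and no test was run.

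The 15 min difference in the share of filtered cells became 6.02 points without an upper gene limit, 6.15 points after thinning and 1.84 points without the Il1a, Cd207 and Dcstamp sum, which was added after seeing the data. The 60 min difference became 7.60 points with a mitochondrial limit of 10% and 4.97 points after thinning. Among C1q-positive cells, the 15 min difference became 38.7 points after thinning and 10.3 points without that sum, and the 60 min difference turned to −0.664 points without it.

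With a minimum of 5 CPM, the genes called numbered 705 for 15 min over control (422 higher, 283 lower), 419 for 60 min over control (182 and 237), 268 for 60 min over 15 min (128 and 140), 46 against the Il1a Cd207 cells and 587 against the Folr2 Pf4 cells. With no minimum and 1 CPM added, they numbered 1197 (768 and 429), 796 (415 and 381), 485 (227 and 258), 33 and 588 in the same order. Both settings turned the balance of higher and lower calls for 15 min over control and for 60 min over 15 min, and the latter setting also for 60 min over control. Adding 5 CPM gave 13 against the Il1a Cd207 cells, and the rule without the competing sum gave 165 for 60 min over 15 min. Leaving out 1 library at a time gave 25 to 85 genes against the Il1a Cd207 cells (44 without the control, 85 without 15 min) and 395 to 598 against the Folr2 Pf4 cells (598 without 60 min), where fewer libraries had to pass.

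The summed stress gene ratio at 15 min was 1.70 after centring, 1.72 with a minimum of 3 Cx3cr1 and Tmem119 UMIs, 1.80 as a mean over cells, 2.29 without the 3 heat shock genes, 1.9998 without the competing sum and 1.76 without cells over 1% epithelial UMIs, the last chosen after seeing the data. At 60 min it was 1.89, 1.77, 1.87, 1.88 and 1.90 under the first 5 of these.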
